A study of Homo sapiens with 12 samples.

Results

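RNA-seq profiles of 12 libraries were examined for 40 genes that build ribosomes in the nucleolus, taken from 28008 genes in each count table. The 40 were taken by symbol, and no threshold on measured values decided which of them to include. They comprise 3 proteins of the box C/D and 4 of the H/ACA small nucleolar ribonucleoproteins (snoRNPs), 5 subunits of RNA polymerase I, 2 of them shared with polymerase III, 6 abundant nucleolar proteins with several roles, 7 factors of the small-subunit (SSU) processome, 4 later 40S factors and 11 factors of 60S assembly. All 40 passed the filter on low counts in both lines.

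QGP-1 and BON-1 are established human pancreatic neuroendocrine tumor (pNET) lines, and the study asked what depends in them on MUC1-C, the transmembrane subunit of the mucin MUC1. Every group carried a tetracycline-inducible MUC1 hairpin (tet-MUC1shRNA) in a puromycin-selectable vector. Cells of each line received vehicle (0.1% DMSO) or 500 ng/mL doxycycline (DOX) over 7 days, and the 4 groups hold 3 libraries apiece. Libraries of cells with a control hairpin were not analysed here, so silencing of MUC1 and exposure to DOX cannot be told apart.

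Ribosomes are assembled in the nucleolus, where RNA polymerase I transcribes a long precursor of ribosomal RNA (rRNA). snoRNPs methylate and pseudouridylate that precursor, the SSU processome folds and cuts its 5′ part, and separate factors mature the 40S and 60S subunits before export. The genes of this pathway are well known targets of MYC, which binds the E-box CACGTG, and they are often transcribed together in growing cells.

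MUC1 checked the labels. Its normalized level, in counts scaled to a common library size (CPM) after adjustment by the trimmed mean of M-values (TMM), was 6.21 ± 0.846 with vehicle and 0.829 ± 0.183 with DOX in QGP-1 cells, and 19.0 ± 2.91 and 2.70 ± 1.25 in BON-1 cells (SD, n = 3). MYC did not fall on this scale: its log2 fold change was 0.24 ± 0.09 in QGP-1 (edgeR adjusted p = 0.0446) and 0.30 ± 0.09 in BON-1 cells (edgeR adjusted p = 0.00657; standard error, SE). The QGP-1 call for MYC was kept in 1 of 6 fits with a library left out, and its BON-1 value was −0.05 in the deposited length-scaled values (TPM), where the median of all genes was −0.313. Totals were 38224144 to 50525926 counts in the QGP-1 libraries and 15981954 to 28484324 in those of BON-1. Of 11 neuroendocrine markers, 10 were tested in QGP-1 cells, where NEUROD1 was below 1 CPM, and 11 in BON-1 cells. The summed level of these markers ran from 6270 to 7140 CPM with vehicle and 7360 to 7980 CPM with DOX in QGP-1 cells, and from 12400 to 16000 and 10100 to 10500 CPM in BON-1 cells. In bulk RNA, fewer cells of a type and less RNA per cell cannot be told apart.

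Summed markers of other cell types stood below the neuroendocrine sum in both lines, but moved with DOX in places. The 5 acinar markers, nearly all PRSS1 in QGP-1 cells, summed to 82.8 to 152 CPM with vehicle and 29.2 to 40.6 CPM with DOX in QGP-1, and to 37.1 to 46.7 and 20.6 to 28.1 CPM in BON-1 cells. The 4 ductal markers ran from 191 to 232 and 161 to 204 CPM in QGP-1, which overlapped, and from 391 to 453 and 472 to 599 CPM in BON-1 cells. The 3 immune markers, nearly all CD68 in the latter line, summed there to 23.7 to 26.3 CPM with vehicle and 48.5 to 52.8 CPM with DOX, while PTPRC and CD3E were below 1 CPM. The 5 fibroblast markers, mostly LUM, stood there at 5.22 to 6.61 and 10.7 to 11.5 CPM, with COL1A1, COL1A2, COL3A1 and DCN below 1 CPM. In QGP-1 cells the fibroblast markers stood at 1.73 to 3.59 and 1.14 to 1.29 CPM, and the immune markers reached at most 1.93 CPM. Endothelial markers reached at most 1.23 CPM in QGP-1 and 1.48 CPM in BON-1 cells. The part of these shifts in the results was not tested.

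With DOX, the members moved differently in the 2 lines. In QGP-1 cells 15 of 40 rose and 2 fell, whereas 17.3% and 17.7% of the 15089 genes tested were called higher and lower (edgeR quasi-likelihood test, adjusted p below 0.05). In BON-1 cells 3 rose and 7 fell, beside 17.0% and 18.3% of 14625 genes. The members' share of higher calls, 37.5%, was thus above the background in QGP-1 cells and at 7.5% below it in BON-1 cells, while their share of lower calls was 5% in QGP-1 and, near the background, 17.5% in BON-1 cells. The median log2 fold change of the members was 0.14 in QGP-1 and −0.10 in BON-1 cells, with −0.01 over all genes tested in each line. Most changes were small, and the members' log2 fold changes lay between −0.33 and 0.66 in QGP-1 and between −0.49 and 0.44 in BON-1 cells.

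**Figure D1:**
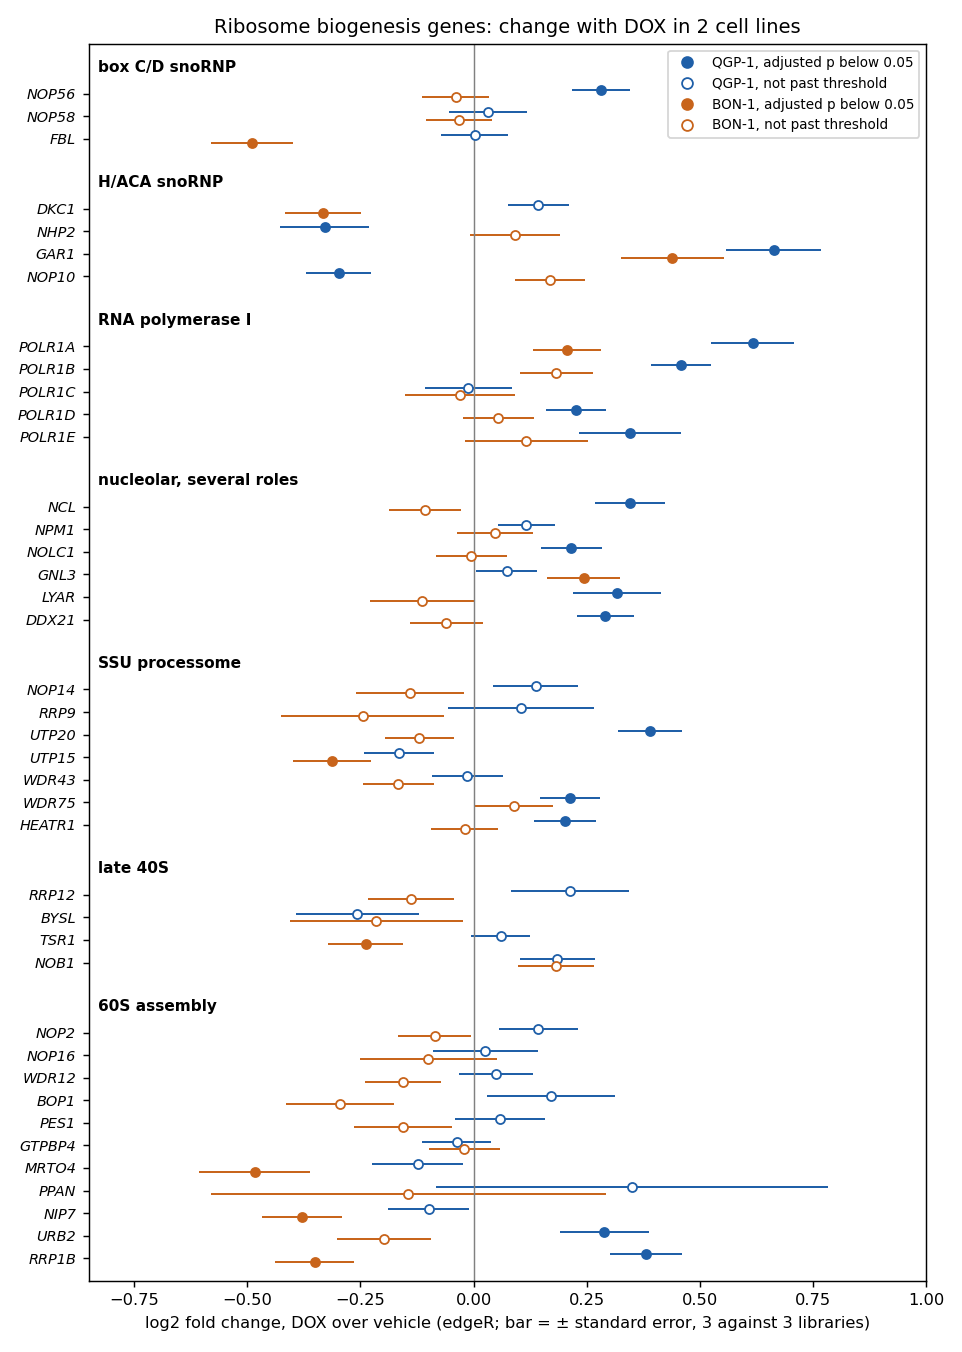
Log2 fold change of each of the 40 members, DOX over vehicle, in QGP-1 (blue) and BON-1 cells (orange), grouped by role. Points are edgeR estimates, bars ± 1 SE from 3 against 3 libraries, and filled points have an adjusted p below 0.05. RNA polymerase I and the multifunctional nucleolar proteins lie mostly to the right of 0 in QGP-1, and all 11 factors of 60S assembly lie to the left of 0 in BON-1 cells.

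Few members were called in both lines. GAR1 and POLR1A were higher in both, or 2 of 40 beside 6.88% of the 13535 genes tested in both, and 0 members were lower in both, beside 7.23%. RRP1B was called in opposite directions, higher in QGP-1 and lower in BON-1 cells, a pattern held by 1.19% of genes, and 0 members showed the opposite pattern, beside 1.50%. In all, 24 members were called in at least 1 line and 16 in neither, beside 7467 and 6068 of the 13535 genes. The log2 fold change was above its BON-1 value in QGP-1 cells for 35 of 40 members, against 6921 of the 13535 genes.

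Whether the response differed between the lines was tested by a line-by-DOX interaction term over 16598 genes. It was called for 11 members: 9 had the lower change in BON-1 cells (background 7.92%) and 2 the higher (background 8.80%). The 9 were NOP56, FBL, DKC1, POLR1A, NCL, DDX21, UTP20, URB2 and RRP1B, and the 2 were NHP2 and NOP10. Members from 6 of the 7 roles were among them, the exception being the 4 later 40S factors. Over all 40, the median of this difference, BON-1 minus QGP-1, was −0.22 on the log2 scale. The count ranged from 7, without QGP-1 DOX replicate 2, to 18, without BON-1 DOX replicate 2. In those 2 fits 5.80% and 9.35% of all genes were called lower in the interaction and 6.83% and 7.05% higher.

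**Figure D2:**
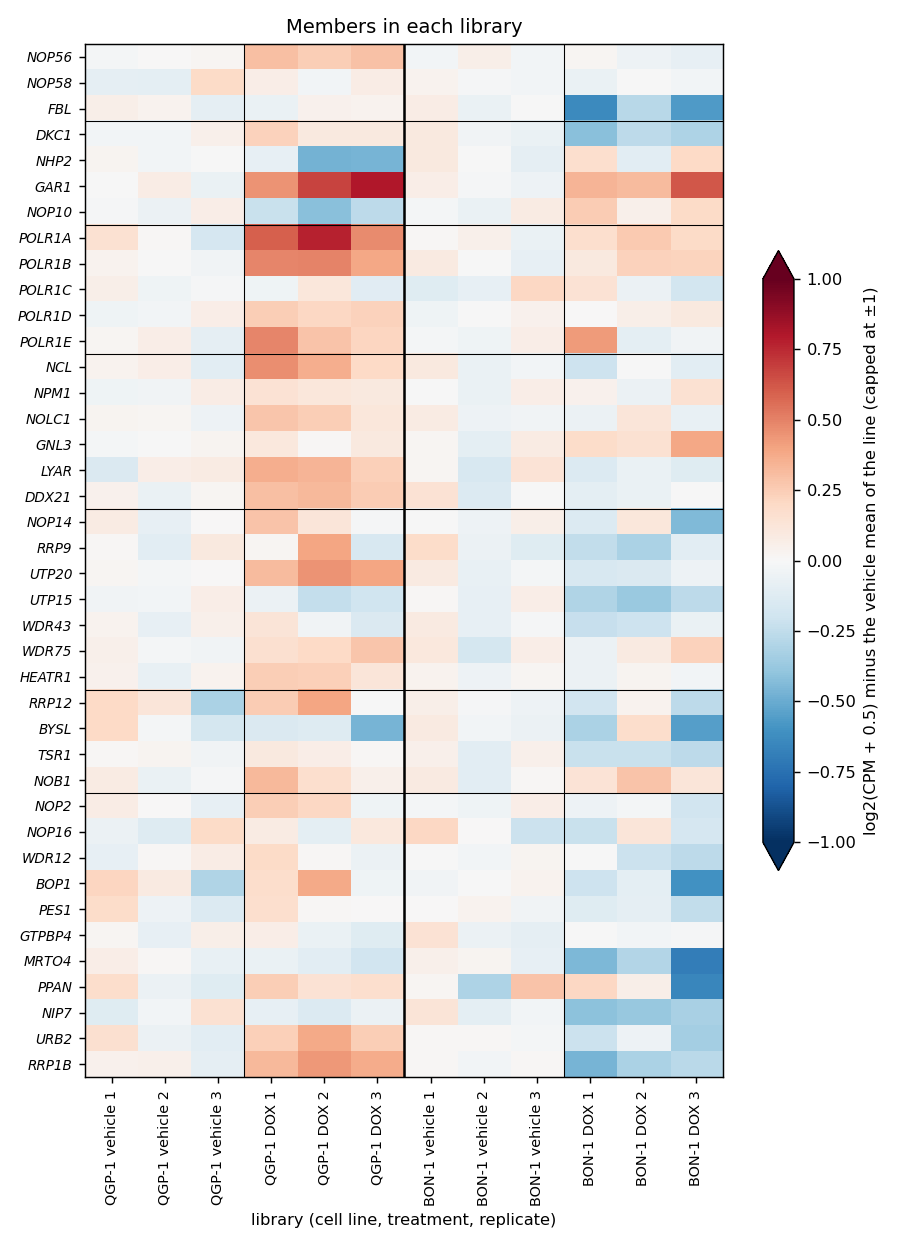
Level of the 40 members (rows, in order of role) in each of the 12 libraries (columns), as log2(CPM + 0.5) minus the mean of the vehicle libraries of the same line, with the colour scale capped at ±1. GAR1 is red in the DOX libraries of both lines, and RRP1B is red in QGP-1 and blue in BON-1 DOX libraries.

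The promoters were read because the members are described as E-box genes. RefSeq windows from 250 bases before to 50 after a transcription start (GRCh38.p14) matched 33 members. CACGTG, which reads the same on both strands, occurred in the windows of 14 of the 33 (42.4%), of 12.1% of 11687 tested genes and of 8.77% of all genes in that table. Within 50 bases of a start it occurred in 13 members (39.4%), 4.98% of tested genes and 3.51% of all. G and C made up 62.7% of the members' windows and 62.8% of those of tested genes. A match is a description of letters and not of binding. The 7 members with the motif whose levels are given by library are shown with 30 bases around it, in capitals, because they include genes that rose and genes that fell.
GAR1, chr4:109815781-109815810, plus strand: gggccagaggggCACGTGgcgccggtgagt
GNL3, chr3:52686026-52686055, plus strand: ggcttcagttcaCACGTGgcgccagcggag
DDX21, chr10:68956604-68956633, plus strand: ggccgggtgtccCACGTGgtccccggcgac
FBL, chr19:39846356-39846385, minus strand: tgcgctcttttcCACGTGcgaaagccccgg
MRTO4, chr1:19251807-19251836, plus strand: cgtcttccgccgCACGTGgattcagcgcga
UTP20, chr12:101280083-101280112, plus strand: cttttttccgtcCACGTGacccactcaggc
NOP10, chr15:34343130-34343159, minus strand: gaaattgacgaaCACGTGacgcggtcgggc
The motif begins 31 bases past the start in GAR1, 6 in GNL3, 6 in FBL and 14 in MRTO4, and it begins 10 bases before the start in UTP20, 11 in NOP10 and 31 in DDX21. These 7 genes were selected in part by calls in both directions, so no shared or mixed direction can be read from them. Among the 14 members with the motif, 4 rose and 1 fell in QGP-1 and 2 rose and 2 fell in BON-1 cells. Among the 19 with windows but no motif, 7 rose and 1 fell in QGP-1 and 1 rose and 4 fell in BON-1 cells. Over all genes tested, 17.3% rose and 17.7% fell in QGP-1 and 17.0% rose and 18.3% fell in BON-1 cells. These groups are small, and a link between motif and direction was not tested.

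The H/ACA snoRNP, which pseudouridylates rRNA, is built of 4 proteins that changed in different directions. GAR1, which the particle needs for full activity, lies on chromosome 4 from 109815510 to 109824740 (GRCh38, GENCODE). Its level in QGP-1 cells was 19.1, 20.3 and 18.3 CPM with vehicle and 26.5, 31.0 and 34.0 CPM with DOX. In BON-1 cells it was 23.3, 22.0 and 21.4 CPM with vehicle and 28.2, 27.8 and 34.5 CPM with DOX. All DOX libraries were above all vehicle libraries in both lines. The log2 fold change was 0.66 ± 0.11 in QGP-1 (edgeR adjusted p = 0.000292) and 0.44 ± 0.11 in BON-1 cells (edgeR adjusted p = 0.0031), and the 2 were not called different (edgeR adjusted p of the interaction = 0.404). GAR1 had the highest fold change of the 40 members in each line and kept its call whichever library was left out.

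DKC1, the pseudouridine synthase itself, moved in BON-1 cells. Its BON-1 levels were 89.3, 81.4 and 79.5 CPM with vehicle and 62.2, 69.2 and 67.3 CPM with DOX, without overlap, and its log2 fold change was −0.33 ± 0.08 (edgeR adjusted p = 0.00259). The QGP-1 levels were 134, 134 and 142 CPM with vehicle and 161, 146 and 146 CPM with DOX, also without overlap but in the other direction, with a log2 fold change of 0.14 ± 0.07 that did not pass the test (edgeR adjusted p = 0.119). The difference between the lines, −0.47 ± 0.11, did pass (edgeR adjusted p = 0.00459).

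NOP10 and NHP2, the small proteins that complete the particle, gave the reverse order. NOP10 stood at 162, 156 and 171 CPM with vehicle and 140, 122 and 136 CPM with DOX in QGP-1 cells, and at 187, 181 and 200 CPM and 226, 196 and 217 CPM in BON-1 cells. The QGP-1 libraries did not overlap and those of BON-1 did. Its log2 fold change of −0.30 ± 0.07 in QGP-1 cells (edgeR adjusted p = 0.00559) turned to 0.44 in the deposited TPM, where the median of all genes was 0.595, and in BON-1 cells it was 0.17 ± 0.08 (edgeR adjusted p = 0.0934). NHP2 levels were 77.3, 74.5 and 75.8 CPM with vehicle and 71.6, 54.6 and 54.9 CPM with DOX in QGP-1 cells, so that DOX replicate 1 lay close to the vehicle libraries. In BON-1 cells NHP2 stood at 41.7, 38.9 and 36.7 CPM with vehicle and 43.96, 36.4 and 44.9 CPM with DOX, which overlapped. The QGP-1 log2 fold change of NHP2, −0.33 ± 0.10 (edgeR adjusted p = 0.0184), kept its call in 2 of 6 fits that left out a library and read 0.39 in the deposited TPM. The interaction was 0.48 ± 0.11 for NOP10 (edgeR adjusted p = 0.00319) and 0.43 ± 0.15 for NHP2 (edgeR adjusted p = 0.0476). When the dependence of the change on transcript length was removed, the QGP-1 log2 fold changes came to −0.056 for NOP10 and −0.13 for NHP2 and the interactions to 0.033 and 0.30, and none of the 4 values passed.

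In the box C/D snoRNP, which 2′-O-methylates rRNA, the enzyme fell in 1 line and a scaffold rose in the other. FBL, the methyltransferase fibrillarin, lies on chromosome 19 from 39834458 to 39846379. With DOX in BON-1 cells FBL went from 95.3, 86.7 and 90.2 CPM to 58.0, 74.8 and 61.0 CPM, without overlap, at a log2 fold change of −0.49 ± 0.09 (edgeR adjusted p = 0.000111). This was the most negative value among the 40 members in that line. In QGP-1 cells FBL stood at 77.4, 76.1 and 70.0 CPM with vehicle and 71.1, 76.6 and 76.2 CPM with DOX, at a log2 fold change of 0.00 ± 0.07 (edgeR adjusted p = 0.983). NOP56, a core scaffold of the particle, was 103, 105 and 106 CPM with vehicle and 129, 125 and 128 CPM with DOX in QGP-1 cells, where it rose by 0.28 ± 0.06 on the log2 scale (edgeR adjusted p = 0.00381). Its BON-1 libraries overlapped, at 271, 286 and 270 CPM with vehicle and 279, 265 and 260 CPM with DOX. The change was lower in BON-1 cells by 0.48 for FBL and 0.31 for NOP56 (edgeR adjusted p = 0.0104 and 0.0243). NOP58, the partner scaffold of NOP56, had log2 fold changes of 0.03 and −0.03 and passed in neither line.

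**Figure D3:**
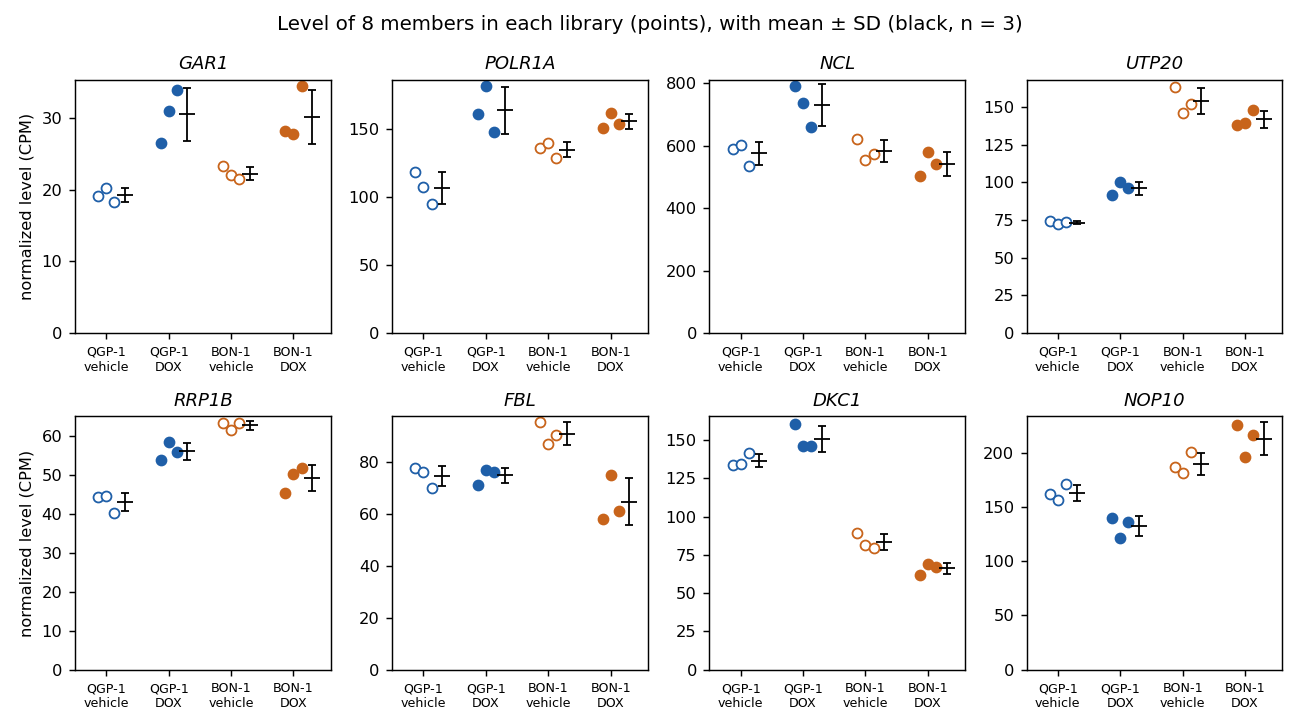
Normalized level in CPM of 8 members in each library (points; open, vehicle; filled, DOX), with mean ± SD in black (n = 3 per group) and axes that start at 0. GAR1 and POLR1A are higher with DOX in both lines, NCL and UTP20 in QGP-1 cells, FBL and DKC1 are lower in BON-1 cells, and RRP1B moves in opposite directions.

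Of the 5 subunits of RNA polymerase I among the members, 4 rose in QGP-1 cells and POLR1A alone in BON-1 cells. Of all genes tested, 17.3% rose in QGP-1 and 17.0% in BON-1 cells. POLR1A, the largest catalytic subunit, lies on chromosome 2 from 86020216 to 86106155. It went from 118, 107 and 94.6 CPM to 161, 182 and 148 CPM with DOX in QGP-1 cells. In BON-1 cells it went from 136, 140 and 129 CPM to 151, 161 and 154 CPM. Neither line overlapped, and the log2 fold change was 0.62 ± 0.09 in QGP-1 (edgeR adjusted p = 0.00018) and 0.21 ± 0.07 in BON-1 cells (edgeR adjusted p = 0.0324). The QGP-1 change was the greater (interaction −0.40 ± 0.12, edgeR adjusted p = 0.0253). The BON-1 call was kept in 2 of 6 fits that left out a library, and its value was −0.14 in the deposited TPM and 0.12, not past the test, with the dependence of changes on transcript length removed, which also took the QGP-1 value to 0.37.

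POLR1B, the second catalytic subunit, gave 113, 110 and 107 CPM with vehicle and 154, 155 and 144 CPM with DOX in QGP-1 cells, at a log2 fold change of 0.46 ± 0.07 (edgeR adjusted p = 0.000144). Its BON-1 log2 fold change was 0.18 ± 0.08, which did not pass (edgeR adjusted p = 0.0797). POLR1D, a subunit shared with polymerase III, and POLR1E, which acts in initiation, rose in QGP-1 cells by 0.23 ± 0.07 and 0.34 ± 0.11 on the log2 scale (edgeR adjusted p = 0.0155 and 0.0284). The POLR1D call was kept in 4 of 6 fits that left out a library and the POLR1E call in 1 of 6. POLR1C, the other shared subunit, had log2 fold changes of −0.01 and −0.03.

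Of the 6 abundant nucleolar proteins, 4 rose in QGP-1 cells (NCL, NOLC1, LYAR and DDX21) and 1 in BON-1 cells (GNL3), beside 17.3% and 17.0% of all genes tested. NCL, nucleolin, binds nascent rRNA and, per length, was the member with the third highest level in both lines. With DOX it went from 589, 602 and 533 CPM to 792, 738 and 661 CPM in QGP-1 cells, a log2 fold change of 0.35 ± 0.08 (edgeR adjusted p = 0.00331). In BON-1 cells it was 621, 554 and 572 CPM with vehicle and 503, 580 and 539 CPM with DOX, which overlapped, at −0.11 ± 0.08 (edgeR adjusted p = 0.318). The interaction for NCL was −0.44 ± 0.12 (edgeR adjusted p = 0.0115).

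DDX21, an RNA helicase that links polymerase I transcription to rRNA processing, followed the same order. Its QGP-1 levels were 324, 301 and 320 CPM with vehicle and 387, 393 and 376 CPM with DOX, at a log2 fold change of 0.29 ± 0.06 (edgeR adjusted p = 0.00268). Its BON-1 levels of 466, 384 and 421 CPM with vehicle and 394, 403 and 422 CPM with DOX overlapped. The interaction was −0.34 ± 0.11 (edgeR adjusted p = 0.0324).

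GNL3, nucleostemin, a GTPase of stem and tumor cells, was 148, 137 and 156 CPM with vehicle and 166, 163 and 192 CPM with DOX in BON-1 cells. It rose there by 0.24 ± 0.08 on the log2 scale (edgeR adjusted p = 0.0192), a value of −0.12 in the deposited TPM. In QGP-1 cells its log2 fold change was 0.07, which did not pass, and the 2 lines were not called different (edgeR adjusted p = 0.283). NPM1, nucleophosmin, a histone chaperone, had log2 fold changes of 0.12 ± 0.06 and 0.05 ± 0.08 and passed in neither line. The annotation lists 49 processed copies of NPM1 that may share its reads, so its level is uncertain. NOLC1, a chaperone of snoRNPs, and LYAR, a nucleolar zinc finger protein, rose by 0.22 and 0.32 on the log2 scale in QGP-1 cells (edgeR adjusted p = 0.0224 and 0.0207). The NOLC1 call was kept in 2 of 6 fits that left out a library and the LYAR call in 4 of 6, as was the BON-1 call of GNL3.

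The SSU processome had 3 of 7 members higher in QGP-1 (UTP20, WDR75 and HEATR1) and 1 lower in BON-1 cells (UTP15). Of all genes tested, 17.3% were higher in QGP-1 and 18.3% lower in BON-1 cells. UTP20, a very large scaffold of the particle, rose from 74.3, 72.2 and 73.4 CPM to 91.5, 100 and 96.4 CPM in QGP-1 cells, at a log2 fold change of 0.39 ± 0.07 (edgeR adjusted p = 0.000717). In BON-1 cells it was 164, 146 and 152 CPM with vehicle and 138, 140 and 148 CPM with DOX, which overlapped by 1 library, at −0.12 ± 0.08 (edgeR adjusted p = 0.231). The interaction, −0.50 ± 0.10, had the second smallest adjusted p among the members (edgeR adjusted p = 0.00167).

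UTP15, a subunit of the complex that couples the processome to transcription, fell by 0.31 on the log2 scale in BON-1 cells (edgeR adjusted p = 0.00501) and had a log2 fold change of −0.16 in QGP-1 cells (edgeR adjusted p = 0.117). With the length dependence removed it was the 1 member called lower in both lines. WDR75 and HEATR1, which act in the same early complex, rose in QGP-1 cells by 0.21 and 0.20 on the log2 scale (edgeR adjusted p = 0.0228 and 0.0341), and each call was kept in 2 of 6 fits that left out a library. HEATR1 had a log2 fold change of 0.024 once the length dependence was removed, which did not pass. NOP14, RRP9 and WDR43 passed in neither line, with log2 fold changes from −0.01 to 0.14 in QGP-1 and from −0.25 to −0.14 in BON-1 cells. RRP9, a protein of the U3 snoRNP, had 6.46 to 7.51 CPM with vehicle in QGP-1 cells, so counting error weighs more on it than on the others.

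Of the later 40S factors, TSR1, a GTPase-like factor that blocks early binding of the 40S subunit, fell by 0.24 on the log2 scale in BON-1 cells (edgeR adjusted p = 0.0261), a call kept in 4 of 6 fits that left out a library. RRP12, BYSL and NOB1, the last being the nuclease that makes the 3′ end of 18S rRNA, passed in neither line. NOB1 had a log2 fold change of 0.18 in each line, and BYSL of −0.26 and −0.21.

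The 60S factors differed between the lines by direction: all 11 had a negative log2 fold change in BON-1 cells, where MRTO4, NIP7 and RRP1B fell, and 8 of 11 a positive one in QGP-1 cells, where URB2 and RRP1B rose. Of all genes tested, 7475 of 14625 were negative in BON-1 and 7344 of 15089 positive in QGP-1 cells. Calls were 18.3% lower in BON-1 and 17.3% higher in QGP-1 cells. RRP1B, which lies on chromosome 21 from 43659560 to 43696079, acts in late nucleolar processing and recruits a phosphatase to the nucleolus. It stood at 44.3, 44.6 and 40.4 CPM with vehicle and 53.9, 58.4 and 55.9 CPM with DOX in QGP-1 cells. In BON-1 cells it stood at 63.4, 61.5 and 63.5 CPM with vehicle and 45.4, 50.2 and 51.9 CPM with DOX. The groups did not overlap in either line, and the directions were opposite. Its log2 fold change was 0.38 ± 0.08 in QGP-1 (edgeR adjusted p = 0.0021) and −0.35 ± 0.09 in BON-1 cells (edgeR adjusted p = 0.00233), and the difference was −0.72 ± 0.12 (edgeR adjusted p = 0.00017), the greatest of the 40. Both calls were kept in each of the 6 fits of their line that left out a library.

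MRTO4, a ribosomal stalk-like protein that holds the place of P0 on the pre-60S particle, went from 25.6, 25.2 and 23.3 CPM to 18.0, 20.02 and 15.1 CPM in BON-1 cells, at a log2 fold change of −0.48 ± 0.12 (edgeR adjusted p = 0.00283). NIP7, needed for cutting the precursor, went there from 75.9, 64.7 and 67.9 CPM to 52.0, 53.1 and 55.3 CPM, at −0.38 ± 0.09 (edgeR adjusted p = 0.00115). Neither gene overlapped between BON-1 groups, and in QGP-1 cells their log2 fold changes of −0.12 and −0.10 did not pass. URB2, a nucleolar factor of early 60S assembly, stood at 26.8, 22.9 and 22.2 CPM with vehicle and 28.2, 31.2 and 28.4 CPM with DOX in QGP-1 cells, and at 33.6, 33.6 and 33.0 CPM and 28.8, 32.2 and 26.3 CPM in BON-1 cells. Both lines were without overlap for URB2, up in QGP-1 and down in BON-1 cells. The QGP-1 rise of URB2 passed at 0.29 ± 0.10 (edgeR adjusted p = 0.0346), the BON-1 value of −0.20 ± 0.10 did not (edgeR adjusted p = 0.143), and the difference of −0.48 ± 0.15 did (edgeR adjusted p = 0.0257). The QGP-1 call was kept in 2 of 6 fits that left out a library, and did not pass at 0.20 with the length dependence removed.

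BOP1, PES1 and WDR12 form 1 complex, PeBoW, and none of the 3 passed in either line. Their log2 fold changes were 0.17, 0.06 and 0.05 in QGP-1 and −0.29, −0.16 and −0.16 in BON-1 cells, and the BOP1 value in BON-1 cells had an edgeR adjusted p of 0.0562. NOP2, an rRNA methyltransferase, NOP16 and the GTPase GTPBP4 had log2 fold changes from −0.04 to 0.14 in QGP-1 and from −0.10 to −0.02 in BON-1 cells. PPAN was measured poorly, at 0.422 to 0.629 CPM with vehicle in QGP-1 cells, and its exons overlap those of a read-through transcript with P2RY11.

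Counted by library and without a model, 17 members had all DOX libraries above all vehicle libraries in QGP-1 cells (23.5% of all genes tested) and 3 had all below (23.2%). In BON-1 cells 5 members had all DOX libraries above (22.4%) and 10 all below (23.9%). The members together took 4130 ± 38.0 CPM with vehicle and 4680 ± 180 CPM with DOX in QGP-1 cells, without overlap, and 5415 ± 199 CPM and 5328 ± 108 CPM in BON-1 cells (SD, n = 3).

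In the vehicle libraries the members differed between the lines about as often as other genes, 30 of 40 beside 77.5% of all tested. With the libraries of both lines scaled together, 21 members were higher in BON-1 than in QGP-1 cells and 9 were lower, beside 39.4% and 38.0% of 15835 genes. NOP56 stood at 107 ± 2.47 CPM in QGP-1 and 273 ± 11.2 CPM in BON-1 cells, a log2 difference of 1.35 ± 0.07 (edgeR adjusted p = 2.49e-13). NOP58 and UTP20 were also above 2-fold, with log2 differences of 1.09 and 1.03, as was the poorly measured PPAN. NHP2 was the member furthest in the other direction, at 77.4 ± 1.33 and 38.7 ± 2.22 CPM, a log2 difference of −0.996 ± 0.08 (edgeR adjusted p = 4.85e-10), and DKC1 followed at −0.75. NCL, GAR1, POLR1C, LYAR, RRP9, UTP15, WDR75, NOB1, NOP16 and WDR12 did not pass. The lines were deposited as separate tables at different depths, so cell line and library batch cannot be told apart in this comparison.

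**Figure D4:**
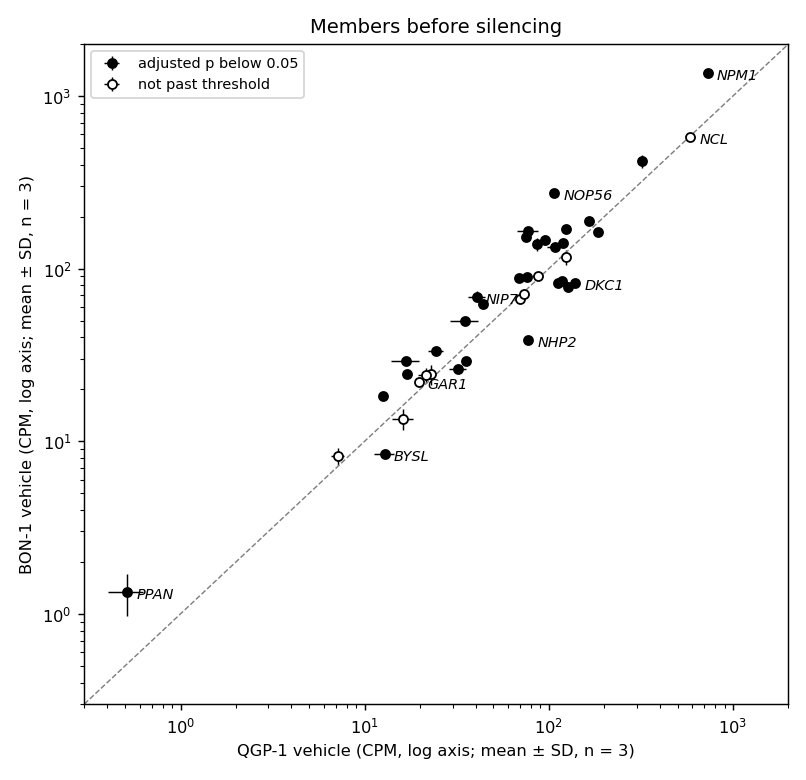
Mean level of each member in the vehicle libraries of QGP-1 (x) and BON-1 cells (y), in CPM on log axes with SD bars (n = 3). The dashed line marks equal levels and filled points have an edgeR adjusted p below 0.05. NPM1 and NOP56 lie above the line and NHP2 below it.

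Compared per length, NOP10, NPM1 and NCL had the 3 highest levels in both lines, with NOP10 first in QGP-1 and NPM1 first in BON-1 cells. In TPM rescaled without the 3 RNAs RN7SK, RN7SL1 and RN7SL2, the vehicle means in QGP-1 cells were 1152 ± 34.6 for NOP10, 767 ± 9.19 for NPM1, 409 ± 39.8 for NCL, 233 ± 11.3 for NHP2 and 147 ± 13.3 for FBL (SD, n = 3). In BON-1 cells they were 1795 ± 51.5 for NPM1, 1619 ± 70.5 for NOP10, 502 ± 21.1 for NCL, 286 ± 17.2 for NOP56 and 217 ± 6.04 for FBL. Neighbours in these orders were apart by more than their SDs. PPAN was lowest in both, at 0.393 and 1.26 TPM. POLR1A, whose transcript is the longest of the 40 at 12480 bases, stood at 14.8 and 22.7 TPM.

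Transcript length moved with the changes. Across the 40 members, Spearman's rho between length and log2 fold change was 0.35 in QGP-1 and −0.18 in BON-1 cells, and across all tested genes with a length it was 0.28 and 0.099. These values describe genes, which share libraries and are not independent. In QGP-1 cells, the 16 members under 2000 bases had a median log2 fold change of 0.09 and the 8 of at least 5000 bases one of 0.33, while all tested genes of those lengths had −0.17 and 0.15. In BON-1 cells the medians were 0.01 and −0.14 for the members and −0.06 and 0.06 for all genes. GAR1, at 1015 bases, was a short gene that rose. With the length dependence removed by an offset in the fit, an alternative chosen after seeing the data, 16 members were higher and 1 lower in QGP-1 cells, beside 14.6% and 16.0% of all genes. In BON-1 cells 3 were then higher and 9 lower, beside 17.7% and 17.3%. The interaction was called for 8 members as lower in BON-1 cells, beside 7.07%, and for 0 as higher, beside 8.78%. Of the 9 named above, 7 kept this call and LYAR was added, while POLR1A and DDX21, with interactions of −0.27 and −0.26, no longer passed, nor did NHP2 and NOP10. The part of length in these results was otherwise not tested.

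**Figure D5:**
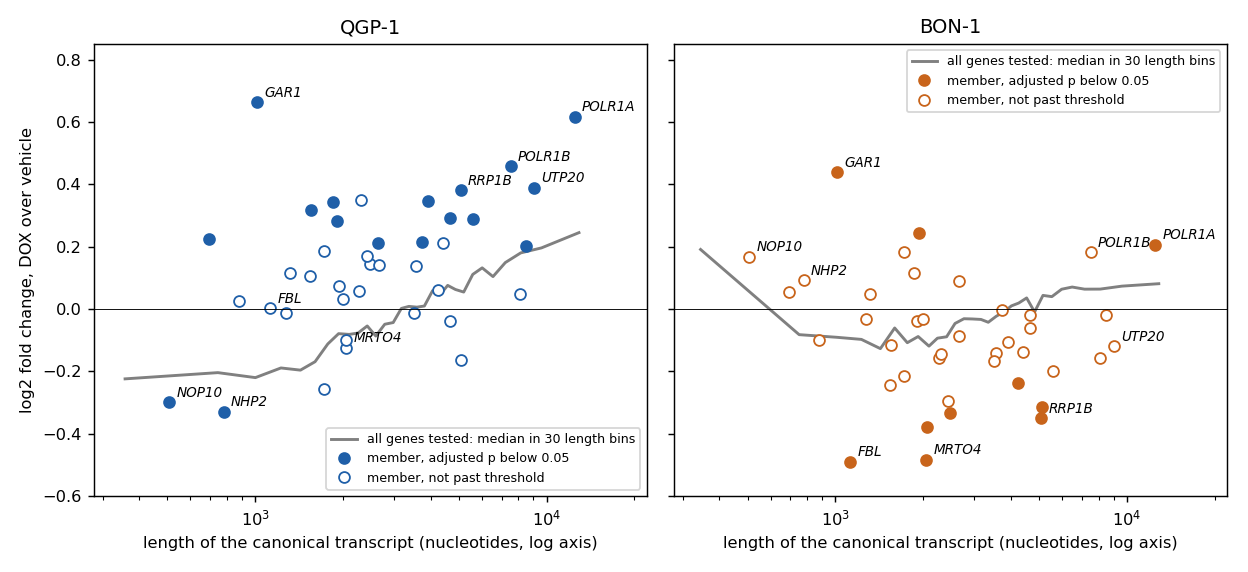
Log2 fold change with DOX against the length of the canonical transcript (log axis) in QGP-1 (left) and BON-1 cells (right). Points are members, filled where the edgeR adjusted p is below 0.05, and the grey line is the median of all tested genes in 30 bins of length. GAR1 lies far above the line in both lines, and NOP10 and NHP2 lie near it in QGP-1 cells.

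Scaling set the sign of several members in both lines. RN7SK, RN7SL1 and RN7SL2 took 5.90% ± 0.506 of counts with vehicle and 3.73% ± 0.693 with DOX in QGP-1 cells, and 1.84% ± 0.523 and 2.77% ± 1.13 in BON-1 cells (SD, n = 3). In the deposited TPM they weigh far more because they are short, and the median log2 change of all genes was 0.595 in QGP-1 and −0.313 in BON-1 cells. Relative to it, the members' median was 0.167 in QGP-1 and −0.121 in BON-1 cells, close to the 0.155 and −0.0928 found with counts. In QGP-1 cells all 39 members that passed a minimum mean of 1 TPM had a positive value on the deposited TPM scale, as did 10218 of all 10561 genes. In BON-1 cells 1 of 39 members had a positive value on that scale, as did 1701 of all 11954 genes. With counts, 11 of 40 members were positive there.

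The rest of the pathway was compared through 123 further biogenesis genes. In QGP-1 cells 31 of them rose and 11 fell, with a median log2 fold change of 0.08. These are 25.2% and 8.94%, beside 17.3% and 17.7% of all genes tested. In BON-1 cells 17 rose and 24 fell, with a median of 0.00. These are 13.8% and 19.5%, near the 17.0% and 18.3% of all genes tested. Beside the same shares of all genes, the 10 further polymerase I genes had 4 higher and 0 lower in QGP-1 and 3 and 3 in BON-1 cells. The 37 further SSU processome genes had 11 higher and 4 lower, and 4 and 8. Of the 123, 9 were higher and 6 lower in both lines, near the 6.88% and 7.23% of all genes. ZNHIT6, an assembly factor of box C/D snoRNPs, rose by 0.65 and 0.44, NOP9 by 0.44 and 0.57 and NOM1 by 0.47 and 0.48 on the log2 scale in QGP-1 and BON-1 cells. NOP53, a 60S factor, had log2 fold changes of −0.55 and −0.66, IMP3, a U3 snoRNP protein, of −0.50 and −0.68, and EMG1, an 18S methyltransferase, of −0.71 and −0.44. Each of these 6 genes passed in both lines (edgeR adjusted p from 4.39e-06 to 0.00465), and NOP53, IMP3 and EMG1 had positive values in QGP-1 cells in the deposited TPM.

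The proteins that the pathway assembles moved otherwise. Of 78 cytosolic ribosomal protein genes tested, 72 were lower and 0 higher in QGP-1 cells, with a median log2 fold change of −0.52, and 24 were lower and 5 higher in BON-1 cells, with a median of −0.14. In the deposited TPM their QGP-1 median was 0.199, which is −0.395 relative to all genes. The interaction was called as higher in BON-1 cells for 40 of the 78, and as lower for 0, whereas the 40 members had 2 and 9. Over all genes tested the shares were 8.80% and 7.92%. Ribosomal protein transcripts are short, and the part of length in their difference from the members was not tested.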

How the data were processed

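RNA-seq of both tet-MUC1shRNA lines, cultured in triplicate, was analysed from the authors' tables. The authors made TruSeq Stranded mRNA libraries, aligned the reads with STAR to GRCh38 and deposited raw counts per gene. The counting program, its strand setting and its handling of reads that match several places are not given in the sources used here, so genes with antisense exon overlap (NHP2, GNL3, HEATR1 and TSR1 among them) are uncertain. They also deposited TPM values, in which counts were divided by a gene length and each library scaled to the same total. The members and lists were chosen with earlier results of these data known.

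Counts were tested in edgeR 4.0.16 (R 4.3.3) with TMM, the default filter, quasi-likelihood fits of 3 against 3 libraries and Benjamini-Hochberg adjustment over all genes tested, with calls at an adjusted p below 0.05. SE is the log2 fold change over the square root of F. CPM were set within each line. One fit of 12 libraries gave the interaction, and one of 6 vehicle libraries gave the baseline. Alternatives used DESeq2 1.42.0, other scaling and filters, limma 3.58.1 on log2(TPM + 1) and log2(TPM + 0.1), a replicate block, a length offset and fits without each library. The scripts were tested on simulated data. Exact permutation of 3 against 3 libraries cannot go below p = 0.1 and was not used.

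All 40 members could be named. Values of every library are given for members called in both lines, called in the interaction, or among the 3 most negative and 3 most positive called of a line. Of the other biogenesis genes, the 3 with the most negative and the 3 most positive mean changes called alike in both lines were named, at a mean log2 CPM of at least 3. Coordinates and lengths are from GENCODE on GRCh38, and promoters from RefSeq. The 7 members without an entry are NOP58, POLR1E, NOLC1, RRP12, BOP1, URB2 and RRP1B. Replicates of a group differed beyond sampling noise (chi-square per gene 5.92 to 29.7). Markers of acinar, ductal, fibroblast, immune and endothelial cells were also summed.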

Additional observations from a re-analysis of the deposited data

Results flagged for a closer look

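The change with DOX differed between BON-1 and QGP-1 cells for 11 members by a test of the difference itself (edgeR interaction of cell line and DOX, adjusted over 16598 genes). On the log2 scale, BON-1 minus QGP-1, it was −0.31 for NOP56, −0.48 for FBL, −0.47 for DKC1, −0.40 for POLR1A, −0.44 for NCL, −0.34 for DDX21, −0.50 for UTP20, −0.48 for URB2 and −0.72 for RRP1B. It was 0.43 for NHP2 and 0.48 for NOP10. RRP1B was the 1 member of the 11 with a called change in each line in opposite directions. The NHP2 call was kept in 3 of 12 fits that left out a library. URB2 and DDX21 each lost theirs in several fits, among them those without QGP-1 vehicle replicate 2 or DOX replicate 2. POLR1A lost its call without QGP-1 vehicle replicate 3 or DOX replicate 2, and NOP56 without QGP-1 vehicle replicate 1. FBL, DKC1, NCL, UTP20, RRP1B and NOP10 kept theirs in all 12.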

How the results depend on the processing

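No clear pairing by replicate number was seen (correlations of same-numbered deviations −0.074 to 0.12, of differently numbered ones −0.28 to 0.18). With 3 libraries per group this cannot show whether the libraries were paired. With a replicate block, 15 members were higher and 2 lower in QGP-1, and 3 and 8 in BON-1 cells. Of all genes, 18.2% were then higher and 18.1% lower in QGP-1, and 16.5% and 18.2% in BON-1 cells. The interaction was called for 10 members, 8 lower and 2 higher, without DDX21, beside 7.89% and 8.80% of all genes. DESeq2 gave 15 higher and 2 lower members in QGP-1, and 3 and 7 in BON-1 cells. The shares of all genes were then 18.3% and 18.4%, and 17.4% and 17.2%. Leaving out each library gave 9 to 13 higher and 1 to 2 lower in QGP-1 cells (9 without vehicle replicate 2 or DOX replicate 2), 1 to 4 higher (1 without vehicle replicate 2 or DOX replicate 3) and 6 to 8 lower in BON-1 cells, 1 to 3 higher and 0 lower in both, 7 to 18 with an interaction and 27 to 30 that differed at baseline. The shares of all genes moved too in these fits. They were 12.9% (without vehicle replicate 2) to 17.3% higher and 13.1% to 17.1% lower in QGP-1 cells. In BON-1 cells they were 12.8% to 14.7% higher and 14.7% to 17.2% lower. Calls for NOP56, GAR1, NOP10, POLR1A, POLR1B, NCL, DDX21, UTP20 and RRP1B in QGP-1 and for FBL, DKC1, GAR1, UTP15, MRTO4, NIP7 and RRP1B in BON-1 cells were kept in all 6 fits of their line.

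Without TMM, 1 member was higher in BON-1 cells, beside 13.9% of all genes, and 1 in both lines. With no filter or with both lines in 1 fit, 1 was also higher in both. With the length offset, chosen after seeing the data, 1 was lower in QGP-1 cells, beside 16.0% of all genes, and 1 in both lines. The deposited TPM gave 39 higher and 0 lower in QGP-1 cells, 0 and 0 for BON-1 and 0 higher in both, with either pseudocount. On log2(TPM + 1), all genes in BON-1 cells then had 0.243% higher and 1.92% lower. All genes in QGP-1 cells had 86.8% higher and 0.862% lower, so the members' count there was near the background. Without RN7SK, RN7SL1 and RN7SL2 it gave 34 higher and 0 lower for QGP-1, beside 50.4% and 5.17% of all genes, 1 higher and 8 lower in BON-1 cells, beside 1410 and 2395 of 13559 genes, and 1 higher in both.

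In BON-1 cells 11 of 40 members were positive with counts and 1 of 39 in the deposited TPM, so most of those 11 signs turned. On log2(TPM + 1) the sign turned in QGP-1 cells for NHP2 (0.39), NOP10 (0.44), POLR1C (0.65), UTP15 (0.49), WDR43 (0.68), BYSL (0.36), GTPBP4 (0.66), MRTO4 (0.48), NIP7 (0.58), NOP53 (0.17), IMP3 (0.23) and EMG1 (0.025), and, among genes called with counts in BON-1 cells, for POLR1A (−0.14), GNL3 (−0.12) and MYC (−0.048). On log2(TPM + 0.1) the values were 0.40, 0.44, 0.72, 0.56, 0.72, 0.46, 0.70, 0.60, 0.64, 0.19, 0.23 and 0.027, and −0.16, −0.12 and −0.055, in that order. Without the 3 RNAs the sign turned in QGP-1 cells for NOP10 (0.022), POLR1C (0.30), WDR43 (0.30), GTPBP4 (0.28) and NIP7 (0.22). It also turned for UTP15, BYSL and MRTO4, which did not pass. On that scale 38 of 39 members were positive, as were 10328 of all 12928 genes, whose median was 0.286. Depth limits PPAN most, with an SE of 0.43 in QGP-1 cells.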
